A study of Mus musculus with 4 samples.

Results

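The semaphorins, plexins and neuropilins form a ligand and receptor system of 31 genes, followed here in mouse glial progenitors that lack or carry the RNA-binding protein Quaking. The members are the genes whose deposited symbol is that of a semaphorin, a plexin, Nrp1 or Nrp2. They comprise 20 semaphorins, 9 plexins and 2 neuropilins among the 35857 genes listed. Of these, 30 averaged 1 TPM or more across the libraries and were tested, and Sema3g, at 0.06 and 0.09 TPM in Qk_KO cells and 0.02 and 0.04 TPM in control cells, was not. TPM is a level per transcript length, scaled as a share of all transcripts of a library.

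One group was Qk-/- (Qk_KO, 2 libraries) and the other wild type (control, 2 libraries). All were C57BL/6 neural stem cells of embryonic cerebral cortex, taken 24 hr into induced glial differentiation, and polyadenylated RNA was sequenced. How Qk was deleted is not given in the sources used here. The sources used here do not state that the replicates were separate cultures. The p-values measure the spread between these libraries, which may be partly technical. The read depth is unknown, because TPM keeps none. Qk had 36.1 and 43.7 TPM in Qk_KO cells, against 208 and 215 TPM in control cells. The Qk_KO mean was 18.9% of the control mean, and the libraries hold no measure of Quaking protein. The 9 markers of neural stem cells and glial progenitors summed to 7190 and 7180 TPM in Qk_KO cells and 7245 and 6943 TPM in control cells, and all 9 had a mean of at least 1 TPM. Fabp7 and Vim made up most of these sums, and single markers differed. Slc1a3, a glutamate transporter of radial glia, fell to 117 and 150 TPM in Qk_KO cells, against 338 and 435 TPM in control cells (limma adjusted p = 0.0324), and Pax6, a transcription factor of cortical progenitors, rose to 48.9 and 45.8 TPM in Qk_KO cells, against 24.0 and 17.9 TPM in control cells (limma adjusted p = 0.0423). The other 7 did not pass. Of all genes tested, 3.24% passed. Astrocyte markers (5 genes) summed to 318 and 234 TPM in Qk_KO cells and 122 and 120 TPM in control cells. Of these, Aqp4 and Aldh1l1 lay apart higher, S100b lay apart lower and Gfap and Slc1a2 overlapped. Only Aqp4 passed, at 29.3 and 35.1 TPM in Qk_KO cells, against 3.83 and 4.88 TPM in control cells (limma adjusted p = 0.0123). Markers of fibroblasts and meninges (6 genes) summed to 36.6 and 36.5 TPM in Qk_KO cells and 48.6 and 42.9 TPM in control cells. Qk_KO replicate 1 stood apart from the other libraries. Xist was at 0.04 TPM there and between 57.6 and 62.5 TPM in the other 3. The Y-linked gene Eif2s3y was at 35.4 TPM there and listed at 0 in the other 3. The 2 Qk_KO libraries therefore hold RNA from different cells, and their spread includes this difference. The 2 control libraries were alike in both genes, which does not settle whether they were separate cultures. Markers of inhibitory neurons (6 genes) summed to 138 TPM there and to between 5.64 and 11.4 TPM in the other 3. Dlx1 and Dlx2 made up most of the 138 TPM, at 36.7 and 76.0 TPM. Gad1, Gad2 and Dlx5 were also highest in that library, and Lhx6, at 0.09 TPM, was not.

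Semaphorins are ligands that carry a sema domain and steer the migration of cells and axons. Those of class 3 are secreted and most bind a neuropilin, which has no signalling domain of its own and pairs with a plexin, whereas classes 4 to 6 are transmembrane proteins, class 7 is anchored by a lipid, and these bind plexins directly. Plexins bear a GTPase-activating domain inside the cell and act on the cytoskeleton through small GTPases and kinases. In the developing forebrain the system is known for repelling axons, guiding migrating interneurons and oligodendrocyte precursors, and patterning vessels.

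Plxnd1, the receptor of the secreted ligand Sema3e, was the only member that passed the test across all genes, and it fell in the Qk_KO cells. It had 7.68 and 7.20 TPM in Qk_KO cells, against 17.4 and 16.2 TPM in control cells, so the groups lay apart and the Qk_KO mean was 44.2% of the control mean. The log2 fold change was -1.08 (SE 0.13, 95% CI -1.41 to -0.75, limma adjusted p = 0.0360 after Benjamini-Hochberg). All log2 fold changes here are differences of log2(TPM + 1), a scale that compresses the changes of weakly expressed genes. The call was 1 of 30 members tested, or 3.33%, where 430 of 13260 genes tested, or 3.24%, were called in either direction with 1.83% called higher and 1.42% called lower. The share of members called was thus near that of all genes. The call of Plxnd1 was lost without any single library (adjusted p between 0.0734 and 0.295 by limma), with no filter on low genes (0.139) and without limma's trend (0.0575). The log2 fold change stayed between -1.13 and -1.03 whichever library was left out.

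**Figure D1:**
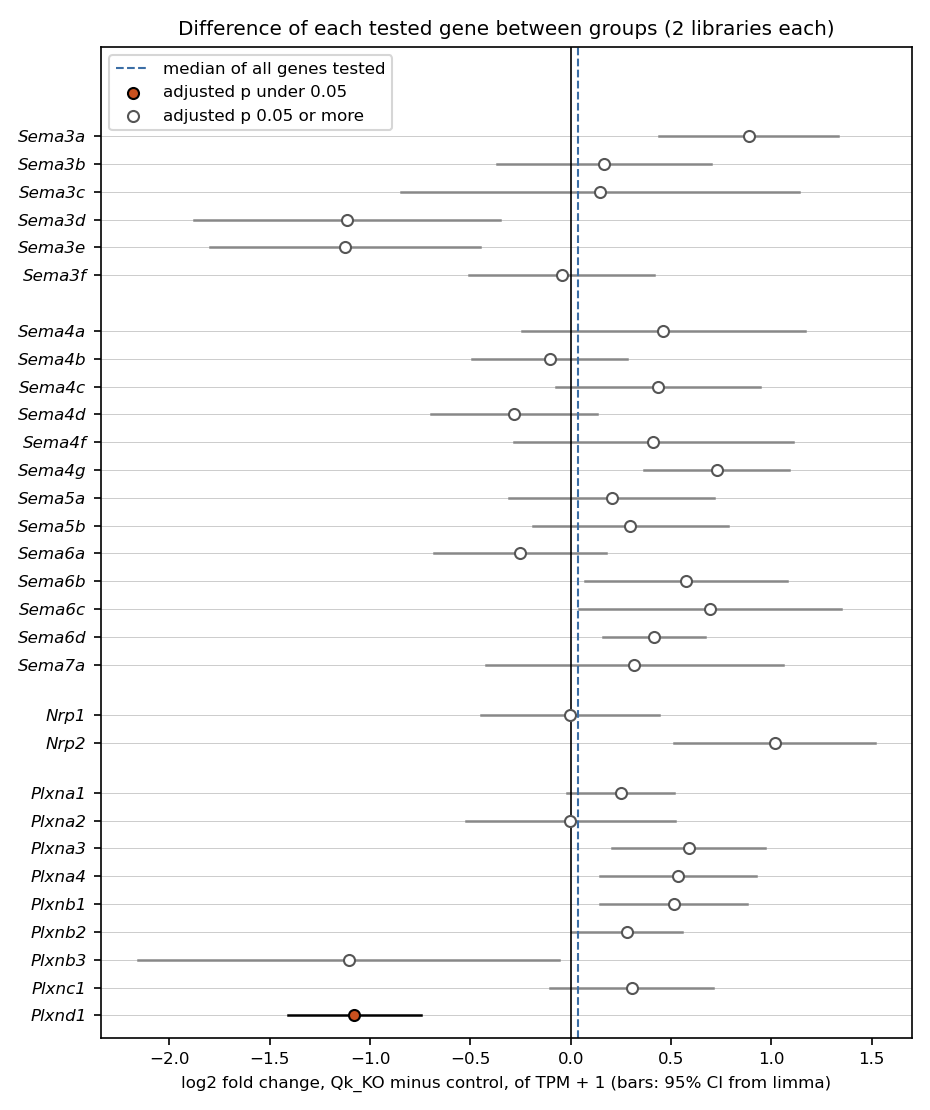
Log2 fold change (horizontal axis, Qk_KO minus control, of TPM + 1) of the 30 tested genes, 2 libraries per group, with 95% confidence intervals from limma. The filled point, Plxnd1 at -1.08, is the only gene with an adjusted p under 0.05, and the dashed line is the median of all genes tested at 0.04.

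Outside Plxnd1, 0 members were called higher and 0 lower, and 29 did not pass. At an adjusted p under 0.1 in limma there were 6 members higher and 3 lower, or 30% of members, where 8.2% of all genes tested were higher, 6.79% lower and 15% either. At an unadjusted p under 0.05 there were 10 members higher and 4 lower, or 46.7%, where 15.8% of all genes were higher, 12.6% lower and 28.4% either. These shares were above those of all genes, and no test of that difference was made. The values of the 2 groups did not overlap for 15 members that were higher in Qk_KO and 5 that were lower, or 66.7%, where 61.1% of all genes tested lay apart, 33.6% higher and 27.5% lower. The median log2 fold change of the members was 0.29, with 20 of 30 above 0, beside a median of 0.04 over all genes, 54.4% of them above 0. Plxnb3 and Sema3d averaged 0.49 and 0.30 TPM in Qk_KO cells and entered the test only through their higher control values. Sema4f, at 0.970 TPM in control cells, entered only through its higher Qk_KO values. These genes are included in the counts above, and their directions there are not independent of the filter. Genes of the family share libraries and are not replicates. Over all genes, 242 were called higher and 188 lower, and after a trend on the GC content of transcripts was taken out of each library the split was 296 higher and 373 lower. The members' median was then 0.19, with 20 of 30 again above 0. It was 0.16 without control replicate 2 and 0.21 without Qk_KO replicate 1.

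**Figure D2:**
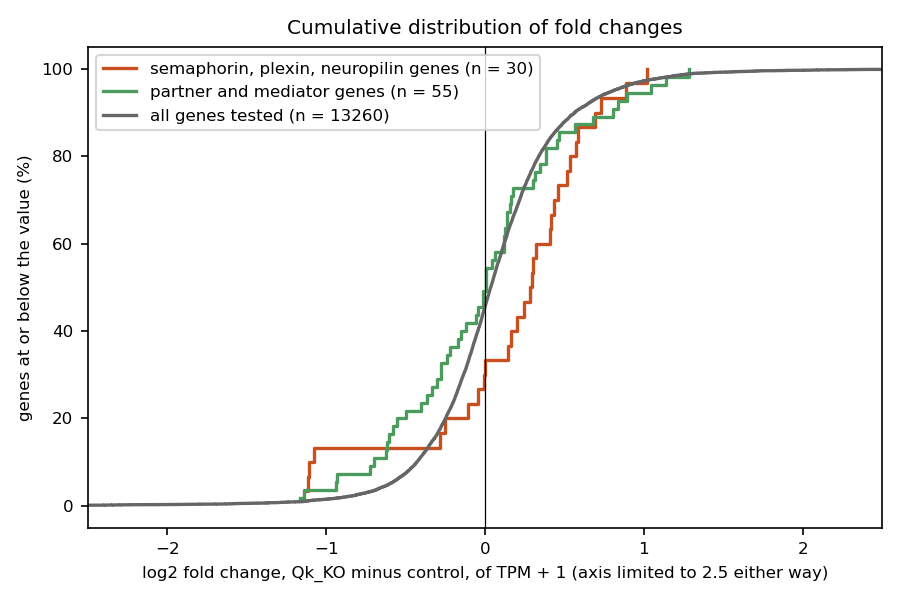
Percentage of genes (vertical axis) with a log2 fold change at or below the value on the horizontal axis, for the 30 tested members, the 55 tested partner and mediator genes and all 13260 genes tested. The members' curve lies to the right of that of all genes around 0, with medians of 0.29 and 0.04, and has 4 genes below -1. Of these, Plxnb3 and Sema3d passed the filter only through the control libraries.

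Together the 31 members made up 0.102% and 0.0941% of all TPM in Qk_KO cells, against 0.0831% and 0.0746% in control cells. The 20 semaphorins summed to 387 and 358 TPM in Qk_KO cells, against 323 and 278 TPM in control cells. For the 9 plexins the sums were 547 and 495 TPM in Qk_KO cells and 450 and 408 TPM in control cells. Both receptor and ligand sums were therefore higher in each Qk_KO library than in each control library. These sums were not tested.

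**Figure D3:**
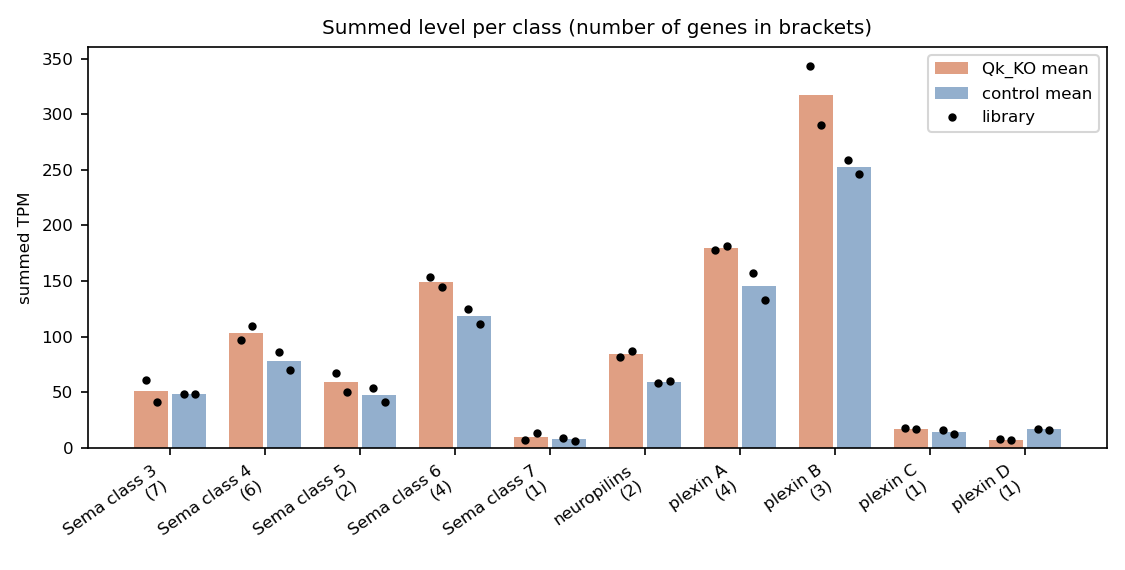
Summed TPM (vertical axis) of each class of semaphorins, the neuropilins and each class of plexins, with bars for the mean of 2 Qk_KO and 2 control libraries and a point per library. Class B plexins led in both groups, at 317 and 253 TPM on average, and plexin D, which is Plxnd1 alone, was the only class with a lower mean in Qk_KO cells, at 7.44 and 16.8 TPM.

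The most abundant member was Plxnb2, a receptor of Sema4c and Sema4d in the developing brain. Its level was 265 and 225 TPM in Qk_KO cells and 204 and 198 TPM in control cells, and it supplied 48.4% and 45.4% of plexin TPM in Qk_KO cells and 45.2% and 48.4% in control cells. The next members in the order were Plxna1, Sema6d, Plxnb1 and Sema5b, with means over the 4 libraries between 49.4 and 71.7 TPM. In the order of mean TPM, Plxnb2 lay above Plxna1 in every library, and Sema3d above Sema3g. All other neighbours had overlapping ranges over the 4 libraries. Of the 30 neighbouring pairs, 9 kept their order in every library, among them Sema6d over Plxnb1 and Plxnb1 over Sema5b, and the order of the rest differed between libraries. Plxnd1 ranked 22 of 31 by its mean in Qk_KO cells and 14 in control cells. The members with means under 2 TPM were Plxnb3, Sema4f, Sema3d and Sema3g.

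**Figure D4:**
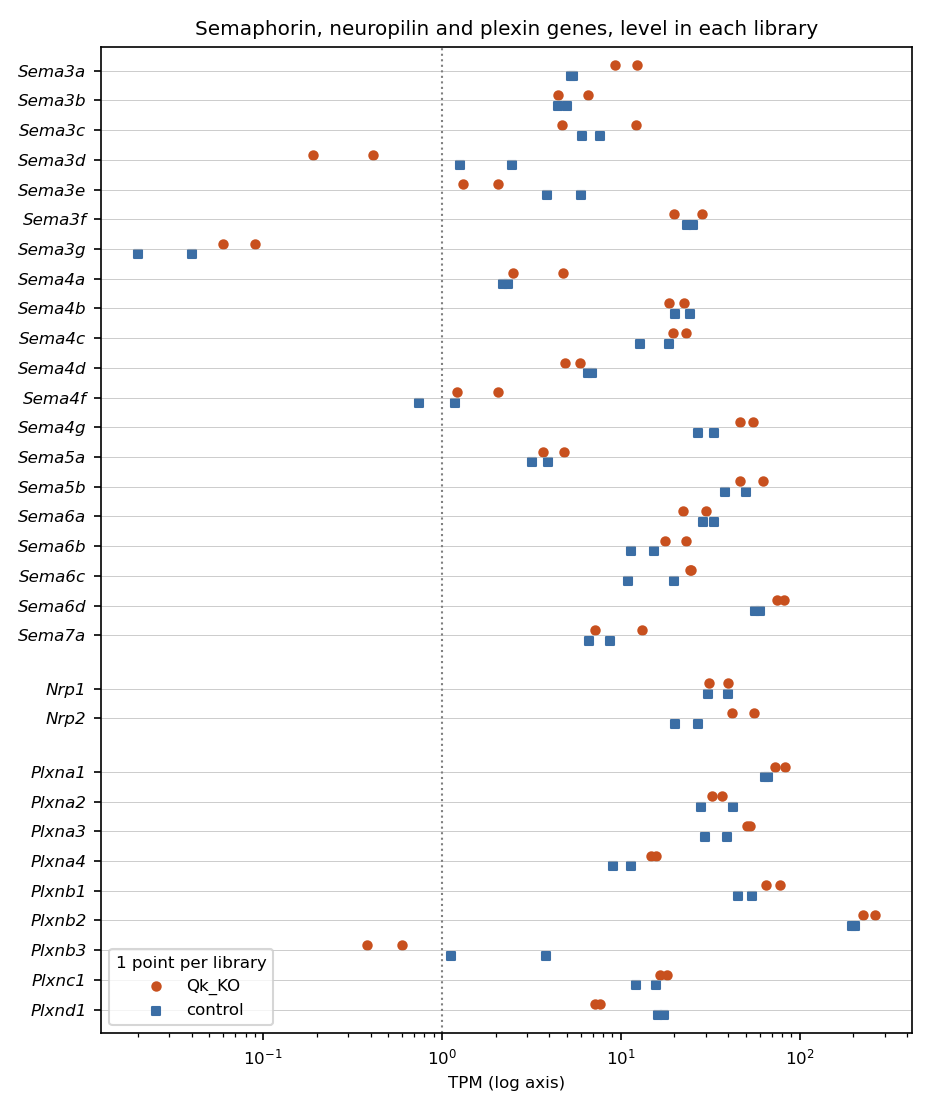
TPM (horizontal log axis) of the 31 members in each of the 2 Qk_KO libraries (circles) and 2 control libraries (squares), with a dotted line at 1 TPM. The symbols of Plxnd1, Sema3e, Sema3d and Plxnb3 lie lower in both Qk_KO libraries and those of Nrp2 and Sema3a higher.

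Quaking binds RNA at a core of the letters ACTAAC or ACTAAT (with U for T in RNA), usually near a second, shorter TAAC or TAAT, and many of its sites lie in 3′ UTRs. The longest annotated 3′ UTR of each gene was searched for these cores on the strand of the RNA. A core was present in 11 of the 30 tested members, or 36.7%, beside 35.1% of 12259 genes tested that have an annotated 3′ UTR. The reverse complement of the core, which Quaking would not read, was present in 9 members, or 30%, beside 35.3% of these genes. A core with a short element within 20 bases occurred in 5 members, or 16.7%, beside 14.6%. The members thus held the core about as often as other genes. A match is a run of letters, not a binding site, and the 3′ UTR used by these cells is not known.

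Plxnd1 held 0 cores in its annotated 3′ UTR of 929 bases, and Sema3e held 0 in 3899 bases and Plxnb3 0 in 264. Of the 5 members whose log2 fold change was beyond 1 in size, Nrp2 held 1 core and Sema3d held 4, and Sema3a, next in size, held 1. The 6 windows of 30 bases below, from the GENCODE transcripts, show the cores of Nrp2, Sema3a and Sema3d, none of which passed the test. Nrp2 and Sema3a hold ACTAAT, whereas Sema3d holds 3 ACTAAC and 1 ACTAAT. Whether a core bears on the values of these genes was not tested. The core is in capitals, and each window runs 5′ to 3′ on the plus strand of GRCm38. They lie at chr1:62797812-62797841 for Nrp2, chr5:13601389-13601418 for Sema3a, and chr5:12585366-12585395, chr5:12587143-12587172, chr5:12588292-12588321 and chr5:12588501-12588530 for Sema3d.
Nrp2: aaagaacaaaatACTAATgatttttttttt
Sema3a: ttaggctcattgACTAATggtgttgctttt
Sema3d, core at base 76 of the 3′ UTR: tacatcccttatACTAACtcatacatgctt
Sema3d, core at base 1853: catggttagactACTAATcatagatcacac
Sema3d, core at base 3002: actacttgttagACTAACataaccaagaat
Sema3d, core at base 3211: cagtgtgtttcaACTAACaagccattttga

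The last 3 windows of Sema3d have a TAAC or TAAT within 20 bases of the core, and the others shown have none. Sema5a held 5 cores, the most of any member, at levels that overlapped between groups. Its annotated 3′ UTR, at 6926 bases, was also the longest of the members. Per kb it held 0.72 cores, below Plxnc1 (1.29), Sema3d (1.10) and Sema7a (0.79).

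Among the secreted class 3 ligands, members differed in opposite directions while the class sum was similar, at 60.9 and 41.0 TPM in Qk_KO cells and 48.6 and 48.0 TPM in control cells. Sema3a, the classic repellent of cortical axons that signals through Nrp1 and class A plexins, had 12.3 and 9.33 TPM in Qk_KO cells, against 5.28 and 5.40 TPM in control cells. Both Qk_KO values lay above both control values, with a log2 fold change of 0.89 (SE 0.18, limma adjusted p = 0.0567), just short of the threshold. It supplied 20.2% and 22.8% of the class sum in Qk_KO cells, against 10.9% and 11.2% in control cells.

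Sema3e, the ligand that binds Plxnd1 without a neuropilin, had 1.32 and 2.07 TPM in Qk_KO cells, against 3.85 and 5.99 TPM in control cells. The values pointed the same way as those of its receptor, with a log2 fold change of -1.13 (SE 0.27), but did not pass (limma adjusted p = 0.0725). Sema3d was at 0.19 and 0.41 TPM in Qk_KO cells, against 1.27 and 2.47 TPM in control cells, and also did not pass (log2 fold change -1.12, SE 0.31, limma adjusted p = 0.0915, and -2.29 with a pseudocount of 0.1). Both groups were near the lower limit of testing, where the pseudocount of 1 compresses the difference, and the Qk_KO mean was 16.04% of the control mean on the TPM scale.

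Sema3f, a repellent that signals through Nrp2, led the class with 28.4 and 19.9 TPM in Qk_KO cells and 25.4 and 23.6 TPM in control cells. The groups overlapped, and the 95% interval of its log2 fold change was -0.50 to 0.42. Sema3c was at 12.1 and 4.71 TPM in Qk_KO cells and 7.68 and 6.06 TPM in control cells. Its high value came from Qk_KO replicate 1, the library with the raised sum of inhibitory neuron markers, mostly Dlx1 and Dlx2. The log2 fold change was 0.15 with that library (limma adjusted p = 0.837) and -0.46 without it. Whether cells with these markers carry the Sema3c signal was not tested. Sema3b was at 6.55 and 4.47 TPM in Qk_KO cells and 5.01 and 4.46 TPM in control cells, which overlap.

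Sema3d, Sema3a, Sema3e and Sema3c lie in this order on chromosome 5 of the mouse build GRCm38, all on the plus strand. Their annotated genes span 12383385 to 12588948, 13125414 to 13602565, 14025276 to 14256689 and 17574281 to 17730268. The log2 fold changes in this order were -1.12, 0.89, -1.13 and 0.15, so their signs differed between neighbours, but none of these genes passed the test. Sema3b and Sema3f lie close together on chromosome 9, at 107597674 to 107609229 and 107681500 to 107710475, both on the minus strand. They had log2 fold changes of 0.17 and -0.04, and neither passed. The signs of Sema3c, Sema3b and Sema3f turned when some library was left out.

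Among the transmembrane class 4 ligands, Sema4g stood highest, at 46.5 and 54.7 TPM in Qk_KO cells, against 33.1 and 27.2 TPM in control cells. The groups lay apart, with a log2 fold change of 0.73 (SE 0.14, limma adjusted p = 0.0555). Sema4c, a ligand of Plxnb2, was at 19.5 and 23.2 TPM in Qk_KO cells and 18.6 and 12.8 TPM in control cells, and Sema4d, the ligand of Plxnb1, was at 4.87 and 5.89 TPM in Qk_KO cells and 6.57 and 6.90 TPM in control cells. Neither passed, with adjusted p of 0.226 and 0.318 by limma. Sema4b was at 22.6 and 18.7 TPM in Qk_KO cells and 24.4 and 20.2 TPM in control cells. The low members Sema4a and Sema4f had means of 3.64 ± 1.598 and 1.64 ± 0.61 TPM in Qk_KO cells, against 2.27 ± 0.0989 and 0.970 ± 0.311 TPM in control cells (SD, n = 2 per group).

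Class 6, also transmembrane and known for acting through class A plexins, had the largest sum of any ligand class, at 154 and 145 TPM in Qk_KO cells, against 125 and 111 TPM in control cells. Sema6d, a ligand of Plxna1, made up most of that difference. It had 81.7 and 74.6 TPM in Qk_KO cells, against 56.5 and 60.1 TPM in control cells, with a log2 fold change of 0.42 (SE 0.10, limma adjusted p = 0.0751). Sema6b and Sema6c also had both Qk_KO values above both control values. Sema6c was at 24.5 and 24.6 TPM in Qk_KO cells, against 19.8 and 11.01 TPM in control cells, and Sema6b at 17.7 and 23.2 TPM in Qk_KO cells, against 15.4 and 11.4 TPM in control cells. Their adjusted p were 0.158 and 0.140 by limma. Sema6a, a ligand of Plxna2 and Plxna4, was at 30.1 and 22.3 TPM in Qk_KO cells and 33.2 and 29.0 TPM in control cells, which overlap.

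Of class 5, whose members carry thrombospondin repeats, Sema5b was the abundant member, at 62.6 and 46.6 TPM in Qk_KO cells and 50.2 and 38.1 TPM in control cells. Sema5a was at 4.82 and 3.69 TPM in Qk_KO cells and 3.90 and 3.2 TPM in control cells. Sema7a, which binds Plxnc1 and integrins, was at 7.15 and 13.2 TPM in Qk_KO cells and 8.77 and 6.63 TPM in control cells. All of these overlapped between groups. Of the 19 semaphorins tested, 0 were called in either direction by limma, where 3.24% of all genes were. At an unadjusted p under 0.05 in limma, 5 were higher and 2 lower, where 15.8% of all genes were higher and 12.6% lower.

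The neuropilins differed from each other. Nrp2, the co-receptor of Sema3f, had 42.0 and 55.8 TPM in Qk_KO cells, against 27.2 and 20.1 TPM in control cells. Both Qk_KO values were the higher ones, with a mean of 48.9 ± 9.80 TPM in Qk_KO cells against 23.7 ± 4.999 TPM in control cells (SD, n = 2 per group), a log2 fold change of 1.02 (SE 0.20) and an adjusted p of 0.0548 by limma, just above the threshold. Nrp1, the co-receptor of Sema3a, had 39.7 and 31.1 TPM in Qk_KO cells and 31.0 and 40.0 TPM in control cells, which overlap fully, with a 95% interval of its log2 fold change from -0.45 to 0.44. Nrp2 therefore supplied 51.4% and 64.2% of neuropilin TPM in Qk_KO cells, against 46.8% and 33.5% in control cells.

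The signalling plexins other than Plxnd1 mostly had higher values in Qk_KO cells without passing. Among class A, Plxna3 had 52.9 and 51.0 TPM in Qk_KO cells, against 39.4 and 29.7 TPM in control cells, a log2 fold change of 0.59 (SE 0.15, limma adjusted p = 0.0832). Plxna4 had 15.7 and 14.7 TPM in Qk_KO cells, against 11.4 and 9.08 TPM in control cells, and Plxna1 had 72.7 and 83.2 TPM in Qk_KO cells, against 64.3 and 66.3 TPM in control cells. These groups lay apart, though the log2 fold change of Plxna1, 0.25, was 0.083 with the GC trend removed and 0.15 without Qk_KO replicate 2. Plxna2, at 36.7 and 32.3 TPM in Qk_KO cells and 42.5 and 27.99 TPM in control cells, overlapped. Plxna3 is X-linked, and without Qk_KO replicate 1, which had Y-linked RNA and almost no Xist, its log2 fold change was 0.56. Exons of Plxna1 and Plxna4 each overlap those of a gene on the opposite strand, and the strand setting of the counting is not given in the sources used here, so reads of the overlap cannot be assigned with certainty.

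Of class B, Plxnb1, the Sema4d receptor, had 78.1 and 64.7 TPM in Qk_KO cells, against 54.4 and 45.0 TPM in control cells, a log2 fold change of 0.51 (SE 0.15, limma adjusted p = 0.0982). Plxnb2 lay apart as well, with 0.28 (SE 0.11, limma adjusted p = 0.166), which was 0.12 with the GC trend removed and 0.17 without Qk_KO replicate 1. Exons of Plxnb1 also overlap a gene on the opposite strand. Those of Plxnc1 and of Nrp1 each overlap a gene on the same strand, which no strand setting would separate. Plxnc1, the Sema7a receptor, was at 18.2 and 16.7 TPM in Qk_KO cells, against 15.9 and 12.2 TPM in control cells (limma adjusted p = 0.277).

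Plxnb3, which is known from cells of the oligodendrocyte lineage, was the lowest plexin, at 0.38 and 0.60 TPM in Qk_KO cells, against 1.13 and 3.81 TPM in control cells. The Qk_KO values were both below the control values, which lay far from each other, and the gene did not pass (log2 fold change -1.11, SE 0.42, limma adjusted p = 0.160). The log2 fold change was -0.52 without control replicate 2 and -1.69 without control replicate 1, and -1.92 with a pseudocount of 0.1. Markers of the oligodendrocyte lineage moved in the same libraries. The 6 markers summed to 25.02 and 53.3 TPM in Qk_KO cells, against 108 and 159 TPM in control cells. Of the 6, 4 had both Qk_KO values below both control values, where 27.5% of all genes tested did. None was at 0 in both libraries of a group. Pdgfra was called lower (limma adjusted p = 0.0461) and no other marker of the list was, where 1.42% of all genes were called lower. Within each group, Plxnb3 and Sox10, the transcription factor of that lineage, were higher in replicate 2, Sox10 being at 2.38 and 7.55 TPM in Qk_KO cells and 17.2 and 40.8 TPM in control cells. The part of these cells in the Plxnb3 values was not tested. In bulk RNA, fewer cells of a type and less RNA per cell cannot be told apart.

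Plxnd1 is best known from endothelial cells and is also expressed by macrophages. Endothelial markers were nearly absent, as the 6 listed summed to 1.15 and 0.87 TPM in Qk_KO cells and 1.12 and 1.28 TPM in control cells, and each averaged under 1 TPM. The 10 markers of microglia and macrophages summed to 21.5 and 16.3 TPM in Qk_KO cells, against 44.8 and 38.4 TPM in control cells. Of the 10, 8 had both Qk_KO values below both control values, where 27.5% of all genes tested did. The mean was under 1 TPM for 3 of the 10. P2ry12, which marks microglia, was between 0 and 0.04 TPM in all libraries, while C1qa, C1qb and C1qc were between 1.72 and 10.0 TPM, and no marker was at 0 in both libraries of a group. The part of these cells in the result for Plxnd1 was not tested. Within the plexins, Plxnd1 supplied 1.40% and 1.45% of the TPM in Qk_KO cells, against 3.87% and 3.98% in control cells. It lies on chromosome 6 at 115954811 to 115995005, minus strand (GRCm38), and no exon of another gene overlaps its exons in the annotation used.

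**Figure D5:**
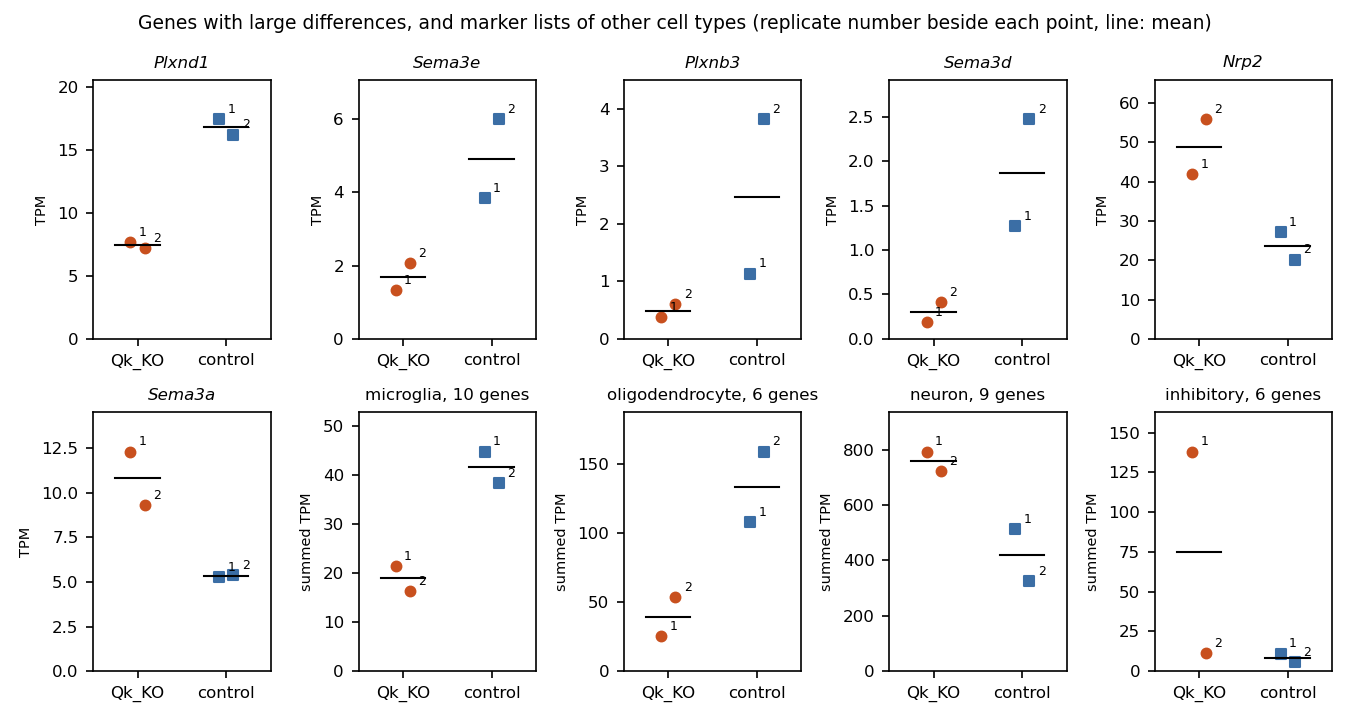
TPM (vertical axes, from 0) of 6 members and summed TPM of marker lists for 4 other cell types in 2 Qk_KO (left) and 2 control (right) libraries, with replicate numbers and a line at each mean. Plxnd1, Sema3e, Plxnb3, Sema3d and the microglia and oligodendrocyte lists are lower in both Qk_KO libraries, Nrp2, Sema3a and the neuron list are higher, and the inhibitory neuron list is high in Qk_KO replicate 1, at 138 TPM.

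Alongside the members, 58 genes of co-receptors, other surface partners and intracellular mediators were listed, 55 of them tested. In limma 1 was called higher and 2 lower, or 5.45% beside 3.24% of all genes, and 52 did not pass. Rhoa, the GTPase that drives actomyosin contraction and that class B plexins activate, fell to 240 and 237 TPM in Qk_KO cells, against 432 and 478 TPM in control cells (log2 fold change -0.93, SE 0.09, limma adjusted p = 0.0261). Farp1, a FERM-domain exchange factor of plexin A signalling, fell to 34.0 and 34.3 TPM in Qk_KO cells, against 56.1 and 50.4 TPM in control cells (-0.62, SE 0.11, limma adjusted p = 0.0480). Pak1, a kinase that acts on actin below Rac1, rose to 85.6 and 99.3 TPM in Qk_KO cells, against 55.6 and 47.2 TPM in control cells (0.84, SE 0.13, limma adjusted p = 0.0429). Each of these 3 calls was lost without any single library, with no filter on low genes and without limma's trend. With a library left out the log2 fold changes were -1.003 to -0.86 for Rhoa, -0.70 to -0.55 for Farp1 and 0.72 to 0.95 for Pak1.

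The collapsin response mediators, cytosolic proteins that carry the Sema3a signal to microtubules, all had both Qk_KO values above both control values, 5 of 5 where 33.6% of all genes did. Of these 0 were called by limma and 5 were higher at an unadjusted p under 0.05, where 15.8% of all genes were. Crmp1 had 310 and 363 TPM in Qk_KO cells, against 204 and 128 TPM in control cells (log2 fold change 1.05, limma adjusted p = 0.0630). Dpysl3 had 437 and 523 TPM in Qk_KO cells, against 360 and 288 TPM in control cells, and the log2 fold changes of Dpysl4, Dpysl5 and Dpysl2, named after their values were seen, were 1.14, 1.28 and 0.30. These genes are also known markers of young neurons. The 9 neuron markers summed to 793 and 724 TPM in Qk_KO cells, against 513 and 324 TPM in control cells, and none was at 0 in both libraries of a group. Of the 9, 4 had both Qk_KO values above both control values, where 33.6% of all genes did, and the other 5 overlapped, Nefl and Stmn2 with lower means in Qk_KO cells. Ina and Snap25 were called higher (limma adjusted p = 0.0426 and 0.0481) and no other neuron marker was, where 1.83% of all genes were called higher. The part of neuronal cells in the values of these mediators, Nrp2 and Sema3a was not tested.

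Among 14 tested co-receptors and surface partners, 0 were called by limma, with 1 higher and 5 lower at an unadjusted p under 0.05, where 15.8% of all genes were higher and 12.6% lower. The most abundant, Itgb1, a subunit of the Sema7a-binding integrin, was at 220 and 198 TPM in Qk_KO cells, against 266 and 365 TPM in control cells, and Nrcam, an adhesion molecule in neuropilin complexes, at 184 and 163 TPM in Qk_KO cells, against 192 and 198 TPM in control cells. Met, the receptor kinase that pairs with class B plexins, was named after its values were seen, at 11.4 and 20.03 TPM in Qk_KO cells, against 26.5 and 44.7 TPM in control cells (limma adjusted p = 0.104). Tyrobp and Trem2, also named after their values were seen, are partners of Plxna1 in myeloid cells and had log2 fold changes of -1.16 and -0.94 (adjusted p of 0.0548 and 0.0618 by limma), beside the lower microglia markers given above. The MICAL list, made up of enzymes that oxidise actin and of related MICAL-like proteins, had 0 of 5 called and 0 at an unadjusted p under 0.05, with Micall1 at 23.3 and 31.5 TPM in Qk_KO cells and 27.1 and 28.8 TPM in control cells, and Mical1 at 29.9 and 29.7 TPM in Qk_KO cells and 27.7 and 20.4 TPM in control cells. Of 4 adaptor and cytoskeleton genes 0 were called. At an unadjusted p under 0.05 in limma, 1 was higher and 2 lower, beside the 15.8% and 12.6% of all genes given above. Cfl1, the actin-severing cofilin, was at 2391 and 2543 TPM in Qk_KO cells, against 3068 and 3003 TPM in control cells. Gipc1 was at 153 and 158 TPM in Qk_KO cells and 154 and 145 TPM in control cells.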

How the data were processed

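The authors deposited TPM per gene in 1 table for each library, with a total of 1000000 up to rounding. The submitters' processing notes name RSEM 1.3.0, STAR 2.4.1d, GRCm38.p4 and mm10. The annotation, filters and strand setting they used are not given in these sources. All 4 libraries entered 1 fit on log2(TPM + 1). Genes averaging 1 TPM or more (13260) were compared, Qk_KO minus control, by the two-sided moderated test of limma 3.58.1 with a trend, in R 4.3.3, at 5.57 degrees of freedom. The p-values were adjusted by Benjamini-Hochberg across these genes, with a threshold of 0.05. The method was tested on simulated data. Members and lists were chosen with earlier results of these data known. All members are named. Partner genes are named where called or, if none of a group was called, as the 2 with the highest mean; others are marked as chosen after their values were seen. Positions and 3′ UTRs (longest in GENCODE's basic set) came from GENCODE M21 on GRCm38, and all 31 members matched by Entrez number. In all 15 alternative settings were run: pseudocount, filter, scaling, trend, small RNA genes, GC, replicate block and each library left out. Figures used matplotlib 3.10.9 in Python 3.11.15.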

Additional observations from a re-analysis of the deposited data

How the results depend on the processing

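The 430 calls over all genes became 0 with no filter on low genes (4327 at an unadjusted p under 0.05 in limma), 649 at a mean of at least 5 TPM, 41 without limma's trend, 804 with small RNA genes left out and 669 with the GC trend removed. Leaving out a library gave 1 to 92 calls, the lone library of a group being assumed to vary like the others. The members called, 1 in the report, became 0 with no filter and without a trend, 3 at a mean of at least 5 TPM, 4 without small RNA genes and 2 with the GC trend removed, and 0 whichever library was left out. Plxnd1 was in each count above 0. Nrp2 and Sema4g joined it at 5 TPM, these and Sema3a without small RNA genes, and Sema3a with the GC trend removed. Partner and mediator genes called, 3 in the report, became 5 with a pseudocount of 0.1, 0 with no filter and without a trend, 6 at 5 TPM, 8 without small RNA genes, 6 with the GC trend removed and 0 to 0 without a library. The log2 fold change of Plxnd1 was -1.08 with no filter and without a trend, where its call was lost, and -1.13 to -1.03 without a library. The log2 fold change moved by over 1.5 times or turned its sign in 21 of the 30 members when some library was left out and in 13 with the GC trend removed. Plxnd1, the one called, was not among them. Signs of members with small differences depended on a library: leaving out each gave -0.18 to 0.18 for Nrp1, -0.30 to 0.29 for Plxna2, -0.067 to 0.40 for Sema3b, -0.46 to 0.75 for Sema3c, -0.29 to 0.20 for Sema3f, -0.24 to 0.026 for Sema4b and -0.083 to 0.72 for Sema7a.

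The replicate numbers are shared by the groups, but nothing says that they pair the libraries. Deviations of Qk_KO and control replicate 1 from their group means had r = 0.11 over 13260 genes. With the replicate number as a block, 1277 genes, 6 members (Nrp2, Sema3a, Sema4g, Plxnb1, Sema3e and Plxnd1) and 12 partner genes were called. Read depth is unknown, so what it limits cannot be stated.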
